A study of Mus musculus with 12 samples.

Results

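The genes described here encode the Kv4 potassium channels and the proteins that assemble with them: the pore-forming subunits Kcnd1, Kcnd2 and Kcnd3, the cytoplasmic KChIP subunits Kcnip1, Kcnip2, Kcnip3 and Kcnip4, and the transmembrane DPP-like subunits Dpp6 and Dpp10. They were taken by gene symbol, and all 9 were found among the 15759 entries of the deposited table and passed the filter on low values. Kv4 channels carry the A-type potassium current of neuronal cell bodies and dendrites, which activates below the firing threshold, inactivates quickly and limits how far action potentials travel back into dendrites. KChIP subunits are EF-hand calcium-binding proteins that bring Kv4 to the cell surface and slow its inactivation, whereas DPP-like subunits speed up its gating. In cerebellar granule cells and in the dendrites of cortical pyramidal neurons, these complexes are known to set excitability.

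Poly-adenylated RNA was sequenced from macrodissected whole cortex and whole cerebellum of C57BL/6J mice at 12 weeks of age, in 3 WT and 3 SCA1 KI libraries for each region. SCA1 KI mice carry Atxn1 154Q/2Q, with 154 glutamine codons in one allele of the endogenous gene and 2 in the other, so that the expanded protein is made in all cells that use this gene. WT mice carry no knock-in allele. The labels name male mice, and the methods of the study males and females combined. The cerebellar libraries are described as an earlier data set of the same laboratory, so region and data set cannot be told apart. Libraries are named below by the letter (cortex) or number (cerebellum) of their column.

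Between 29520855 and 51311309 reads fell on genes in each library. Granule cell markers (8 genes) summed to 130271 to 188066 normalized counts in the cerebellum and to 3760 to 4902 in the cortex. Cortical excitatory markers (8 genes) summed to 58598 to 110760 in the cortex and 2803 to 5870 in the cerebellum. Not every list separated the tissues. Striatal markers (7 genes) summed to 8089 to 26449 in the cortex, highest in WT library B, and to 11277 to 14382 in the cerebellum. Choroid plexus sums varied between cerebellar libraries, from 825 to 75606. WT cerebellum library 2 had the lowest granule cell sum of the cerebellar libraries and the highest thalamic sum. Normalized counts of Atxn1, the knock-in gene, were 7370 ± 815 (SD, n = 3) in WT and 6040 ± 1337 in SCA1 KI cortex, and 3679 ± 54.9 and 3889 ± 221 in the cerebellum. Neither difference passed the test, and the counts do not measure repeat length. In bulk tissue, fewer cells of a type and less RNA per cell cannot be told apart. The labels number the samples of a group as replicates without saying that each is 1 animal, and p-values measure the spread between these samples, which may be technical.

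The genotypes were compared by the log2 fold change (LFC) of SCA1 KI against WT, on the scale of log2(normalized count + 1), with limma fitted to all 15369 tested genes and Benjamini-Hochberg adjusted p. Calls needed an adjusted p below 0.05 and an LFC beyond 0.25 in either direction. In the cortex, Kcnip1, Kcnip2, Kcnip3 and Dpp10 were lower in SCA1 KI mice, while no Kv4 subunit was called. In the cerebellum, Kcnip1 and Kcnip2 were lower, and Kcnip2 fell by 2.63 on the log2 scale.

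**Figure D1:**
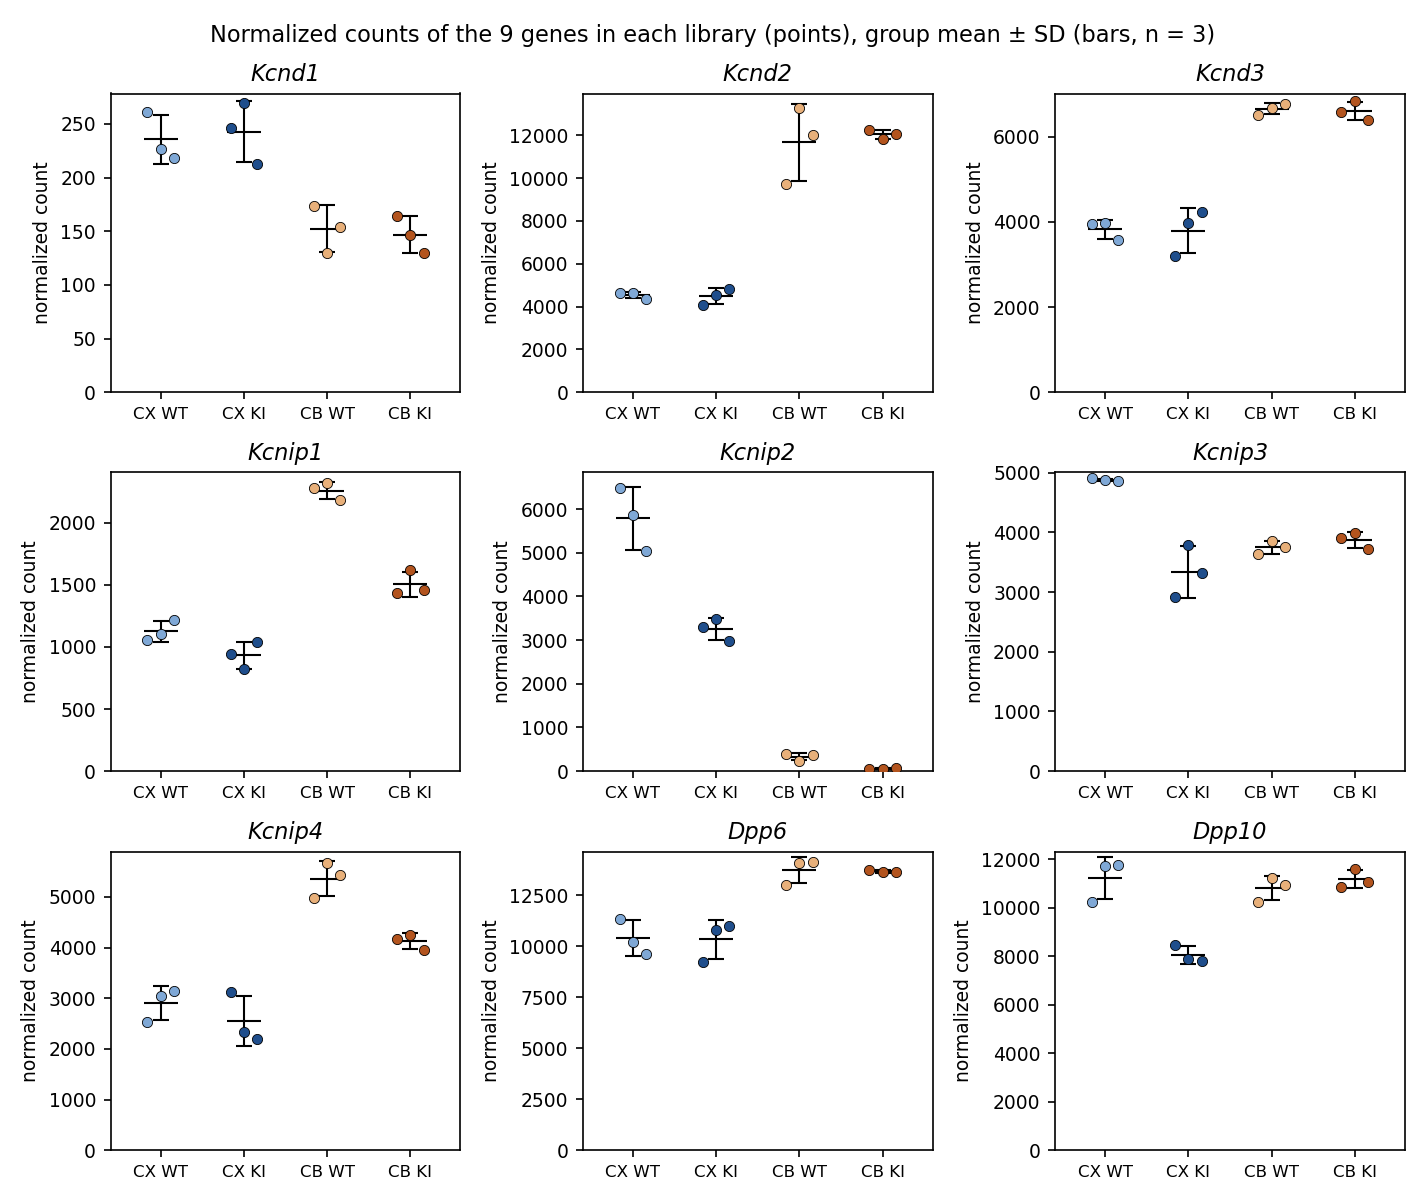
Normalized counts (y axis, linear, from 0) of the 9 genes in cortex (CX) and cerebellum (CB) of WT and SCA1 KI (KI) mice, with 1 point per library and bars for the mean ± SD of 3 libraries. Kcnip2 stood at 5791 ± 724 in WT cortex and 52.5 ± 11.3 in SCA1 KI cerebellum, whereas the 3 Kv4 genes overlapped between the genotypes in both regions.

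The Kv4 subunits share an ion-conducting pore. The stretches of coding sequence of Kcnd1 and Kcnd2 below show what family members have in common and how reads can still be assigned to each: they span the selectivity filter, whose 18 bases are in capitals, and were read 5′ to 3′ from GENCODE vM21 transcripts (GRCm38).
Kcnd1: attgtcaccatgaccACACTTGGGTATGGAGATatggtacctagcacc
Kcnd2: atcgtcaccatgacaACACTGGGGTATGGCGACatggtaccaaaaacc
Even across this conserved stretch of 48 bases, Kcnd1 and Kcnd2 differ at 8 positions. No window of 75 bases, the read length, was shared between the transcripts of any 2 of the 9 genes.

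Kcnd2 encodes Kv4.2, the main A-type subunit of pyramidal cell dendrites and of granule cells, and lies at chr6:21215503-21729805 on the plus strand (GRCm38). Its normalized counts in WT cortex were 4639, 4610 and 4372 (libraries B, C and D), and 4076, 4554 and 4819 in SCA1 KI cortex (A, E and F). In the cerebellum they were 9710, 13275 and 12039 in WT (2, 4 and 6) and 12264, 11845 and 12066 in SCA1 KI (1, 3 and 5). The genotypes overlapped in both regions, and WT library 2 was the low value of the cerebellum. The LFC was −0.02 in the cortex (95% confidence interval −0.23 to 0.19) and 0.06 in the cerebellum (−0.15 to 0.27).

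Kcnd3 encodes Kv4.3, found in interneurons and in cerebellar neurons, and lies at chr3:105452330-105674002 on the plus strand. Its exons overlap those of the antisense gene Kcnd3os over 165 bases. WT cortex had 3948, 3967 and 3567 normalized counts and SCA1 KI cortex 3195, 3972 and 4227. WT cerebellum had 6522, 6675 and 6774, and SCA1 KI cerebellum 6594, 6836 and 6402. As for Kcnd2, cortex library A was the lowest of the SCA1 KI cortex, and the genotypes overlapped. The LFC was −0.02 (95% confidence interval −0.21 to 0.17) in the cortex and −0.01 (−0.20 to 0.18) in the cerebellum.

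Kcnd1 encodes Kv4.1, a subunit of more restricted use in the brain, and lies at chrX:7822289-7838280 on the plus strand. It had the fewest reads of the family, from 213 to 269 normalized counts over the 6 cortex libraries and from 129 to 173 over the 6 cerebellum libraries. The genotypes overlapped in both regions. Its LFC was 0.04 in the cortex (95% confidence interval −0.27 to 0.35) and −0.05 in the cerebellum (−0.36 to 0.26), the widest intervals of the 3 Kv4 genes.

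The KChIP subunits bind calcium through EF hands. The last EF-hand loop is shown because it is the part that the 4 genes have in common, while their amino-terminal exons differ. Its 36 bases are in capitals.
Kcnip1: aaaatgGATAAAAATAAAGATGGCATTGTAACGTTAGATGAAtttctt
Kcnip2: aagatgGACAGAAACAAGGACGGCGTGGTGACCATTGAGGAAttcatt
Kcnip3: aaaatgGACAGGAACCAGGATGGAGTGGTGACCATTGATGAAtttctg
Kcnip4: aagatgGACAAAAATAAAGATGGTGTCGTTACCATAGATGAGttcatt
Kcnip2 and Kcnip3 were the closest pair over these 48 bases, with 9 differing positions, and Kcnip1 and Kcnip2 the most distant, with 15.

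Kcnip2 encodes KChIP2, a partner of Kv4.2 in forebrain neurons and of Kv4 in the heart, and lies at chr19:45791839-45816061 on the minus strand. In the cortex its normalized counts were 6476, 5863 and 5033 in WT and 3307, 3491 and 2984 in SCA1 KI libraries. All 3 SCA1 KI libraries were below all WT libraries. Kcnip2 fell 1.77-fold in the cortex (LFC −0.82, standard error 0.19), with an adjusted p of 0.00899 by limma. In the cerebellum the counts were 385, 237 and 375 in WT and 40.4, 54.2 and 62.9 in SCA1 KI, the latter from 48 to 79 reads a library. The groups again did not overlap, and WT library 4 was the lowest WT value. Kcnip2 fell 6.18-fold there (LFC −2.63, standard error 0.19), with an adjusted p of 7.77e-06 by limma. Its cerebellar level was low in both genotypes: 5.74% of the WT cortex mean in WT and 0.907% in SCA1 KI cerebellum.

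Several marker lists of other brain regions, but not all, moved with Kcnip2 in the cerebellum. The 8 markers of cortical excitatory neurons summed to 4535 to 5870 normalized counts in WT and 2803 to 2912 in SCA1 KI cerebellum, with library 4 the lowest WT value, as for Kcnip2. Among the WT libraries, library 4 also had the lowest thalamic sum, but the highest midbrain sum and the highest forebrain interneuron sum (with Pvalb). Of the 8 cortical excitatory markers, Nrgn and Rorb were lower and Tbr1 higher in SCA1 KI by limma, and Nrgn alone went from 2315 ± 477 to 123 ± 29.5. Tbr1 stood at 26.9 ± 4.52 and 40.9 ± 6.52, and edgeR and DESeq2 each called 2 of the 8 lower and 0 higher. The defining markers Emx1 (2.03 and 2.50 in WT and SCA1 KI) and Fezf2 (0.69 and 0.00) were near 0. Among forebrain interneuron markers 3 of 8 were lower. Their sums were 15321 to 17725 and 12678 to 13692, most of it Pvalb (15347 ± 1480 and 13002 ± 524), which cerebellar interneurons also express and which was not called. Without Pvalb the sums were 803 to 1334 in WT and 272 to 300.1 in SCA1 KI, and Dlx6 was at 0.00 in WT and 0.23 in SCA1 KI. Thalamic markers summed to 10093 to 15414 in WT and 6025 to 6373 in SCA1 KI, with 4 of 8 lower, among them Tcf7l2 (1978 ± 466 and 227 ± 19.7) and Slc17a6 (4531 ± 2034 and 1136 ± 165). Midbrain markers summed to 3854 to 4173 and 3165 to 3379, with 5 of 8 lower, among them Shox2 (172 ± 46.6 and 4.63 ± 4.85), and none at 0. Most of these sums was Tfap2b (2459 ± 232 and 2365 ± 148), which was not called. Otx2 (656 ± 118 and 690 ± 121) was not called either. Oligodendrocyte markers, of cells that the cerebellum holds itself, summed to 183472 to 274306 and 156070 to 156719, with none at 0. Of these, 2 of 8 were lower by limma and 5 of 8 by DESeq2, and 7 of 8 had an unadjusted p under 0.05 by limma. Striatal and hippocampal sums overlapped between the genotypes. Striatal sums were 12476 to 14382 in WT and 11277 to 13337 in SCA1 KI, with 0 of 7 called by limma. Hippocampal sums were 3142 to 3394 and 3319 to 3600, with 1 of 7 lower by limma. By edgeR and by DESeq2, 1 hippocampal marker was higher and 1 lower. Of all tested genes, 4.44% were lower and 0.917% higher in the cerebellum by limma. Of these 15369 genes, 919 were lower and 231 higher there by DESeq2, and 721 lower and 145 higher by edgeR. An unadjusted p under 0.05 by limma was found for 2664. The part of all these markers in the lower Kcnip1 and Kcnip2 was not tested.

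**Figure D2:**
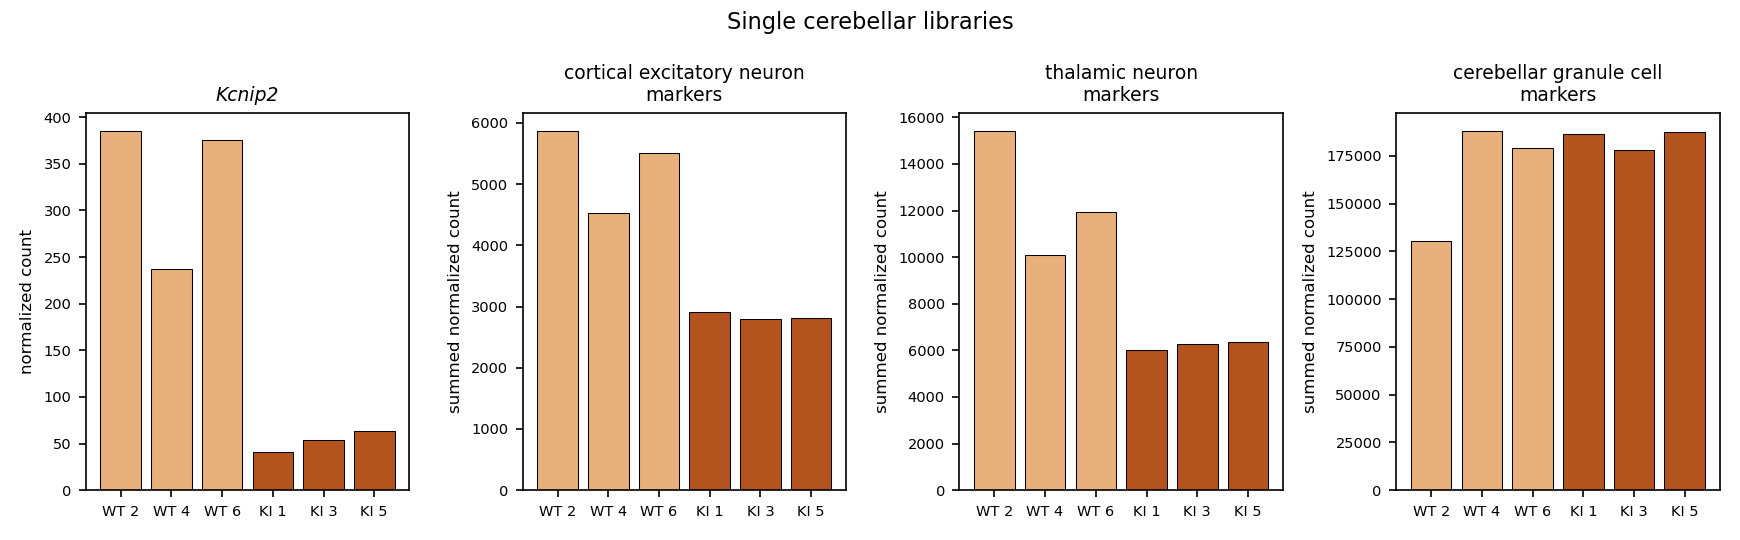
Normalized count of Kcnip2 and summed normalized counts of 3 marker lists (y axes, linear, from 0) in the 6 single cerebellar libraries of WT and SCA1 KI (KI) mice, 1 bar per library. Kcnip2 and the cortical excitatory and thalamic sums were all lower in the 3 SCA1 KI libraries, whereas the granule cell sum was lowest in WT library 2.

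Kcnip1 encodes KChIP1, used by interneurons and cerebellar granule cells, and lies at chr11:33629339-33993152 on the minus strand. In the cerebellum its normalized counts were 2277, 2316 and 2180 in WT and 1431, 1621 and 1458 in SCA1 KI libraries, with a wide gap between the groups. Kcnip1 fell from a mean of 2258 ± 69.7 to 1503 ± 103 (LFC −0.59, standard error 0.088), with an adjusted p of 0.00187 by limma. In the cortex the counts were 1058, 1101 and 1217 in WT and 940, 821 and 1035 in SCA1 KI, also without overlap, though WT library B and SCA1 KI library F lay close together. The LFC was −0.28 (standard error 0.088), at an adjusted p of 0.0493 from limma. That call was at the threshold: the adjusted p was 0.0784 with edgeR, 0.0537 with the libraries centred on the median of their region, 0.0501 without the filter and 0.145 with the cortex fitted alone. It was also lost in 10 of the 12 fits that left out 1 library. The LFC was −0.19 without SCA1 KI library E (adjusted p = 0.166 from limma). Without WT library D, WT library C or SCA1 KI library A the adjusted p was 0.144, 0.0934 or 0.0791, and without any 1 cerebellar library, which enters through the shared spread, it was 0.0547 to 0.0687.

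Kcnip3 encodes KChIP3, also known as DREAM or calsenilin, which besides binding Kv4 acts as a calcium-regulated transcriptional repressor. It lies at chr2:127456498-127522094 on the minus strand. Its WT cortex libraries were nearly alike, at 4902, 4876 and 4866 normalized counts. The SCA1 KI cortex libraries were at 2910, 3785 and 3311, all lower. Kcnip3 fell 1.47-fold in the cortex (LFC −0.56, standard error 0.078), with an adjusted p of 3.88e-04 by limma. The cerebellum showed overlapping groups, with 3637, 3859 and 3749 in WT and 3900, 3989 and 3728 in SCA1 KI, and an LFC of 0.05 (95% confidence interval −0.12 to 0.22).

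Kcnip4 encodes KChIP4, some isoforms of which suppress fast inactivation of Kv4, and lies at chr5:48389502-49524907 on the minus strand. Its exons overlap 5730480H06Rik over 168 bases and the antisense gene Gm20700 over 99 bases. In the cerebellum the counts were 4978, 5666 and 5440 in WT and 4159, 4254 and 3947 in SCA1 KI, without overlap. The LFC of −0.38 (standard error 0.12) did not pass the test at an adjusted p of 0.0939 from limma. It passed with DESeq2 (adjusted p = 0.0335), after correction for GC content and length of the transcripts (0.0268), with the cerebellum fitted alone (0.00832), and without SCA1 KI cortex library A, which enters the shared spread (0.0160). In the cortex the groups overlapped, at 2529, 3051 and 3138 in WT and 3123, 2332 and 2191 in SCA1 KI. SCA1 KI library A stood with the WT libraries: the LFC of −0.20 (95% confidence interval −0.46 to 0.06) was −0.36 without it, which passed (adjusted p = 0.0209 from limma).

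DPP-like subunits belong to the family of dipeptidyl peptidases but are not active as peptidases. The stretches below show the codon at the place of the catalytic serine of the peptidase Dpp4, in capitals, which differs in Dpp6 and Dpp10.
Dpp4: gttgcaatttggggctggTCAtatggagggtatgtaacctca
Dpp6: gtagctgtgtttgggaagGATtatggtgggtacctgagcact
Dpp10: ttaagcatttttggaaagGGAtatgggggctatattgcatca
Over these 42 bases Dpp6 and Dpp10 differ from each other at 19 positions, as many as Dpp4 and Dpp6.

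Dpp10, at chr1:123321471-124045559 on the minus strand, encodes a DPP-like subunit that is prominent in the cerebral cortex. Its normalized counts in the cortex were 10209, 11708 and 11734 in WT and 8475, 7867 and 7802 in SCA1 KI libraries, without overlap. Dpp10 fell 1.39-fold (LFC −0.48, standard error 0.066), with an adjusted p of 3.49e-04 by limma. In the cerebellum the groups overlapped, at 10241, 11205 and 10933 in WT and 10866, 11582 and 11053 in SCA1 KI, with an LFC of 0.05 (95% confidence interval −0.09 to 0.19).

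Dpp6, at chr5:26817203-27727505 on the plus strand, encodes the DPP-like subunit DPPX, an abundant partner of Kv4.2. In the cortex its counts were 11343, 10224 and 9630 in WT and 9204, 10808 and 10971 in SCA1 KI. In the cerebellum they were 13008, 14074 and 14149 and then 13731, 13638 and 13620. The genotypes overlapped in both regions, and the LFC was −0.01 in the cortex (95% confidence interval −0.18 to 0.15) and −0.01 in the cerebellum (−0.17 to 0.16).

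By family, 0 of 3 Kv4 genes, 3 of 4 KChIP genes and 1 of 2 DPP-like genes were lower in the SCA1 KI cortex, and 0, 2 and 0 in the cerebellum. Of the 3 Kv4 genes, 0 had an unadjusted p under 0.05 by limma in either region, and 0 were called by edgeR or DESeq2. None of the 9 was called higher in either region by limma, edgeR or DESeq2, and by limma 0 were higher at an unadjusted p under 0.05. Of all tested genes, 4.82% were higher in the cortex and 0.917% in the cerebellum. The 4 lower genes of the cortex stand beside 10.8% of all tested genes called lower there. Groups did not overlap for 4 of the 9 in the lower direction, beside 18.0% of all genes. In the cerebellum, 2 of the 9 stand beside 4.44% called lower, and 3 without overlap in that direction beside 17.5%. The median LFC of the 9 genes was −0.20 in the cortex and −0.01 in the cerebellum, where those of all tested genes were −0.0028 and −0.0049. Kcnip1 and Kcnip2 were lower in both regions, as were 1.28% of all tested genes.

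**Figure D3:**
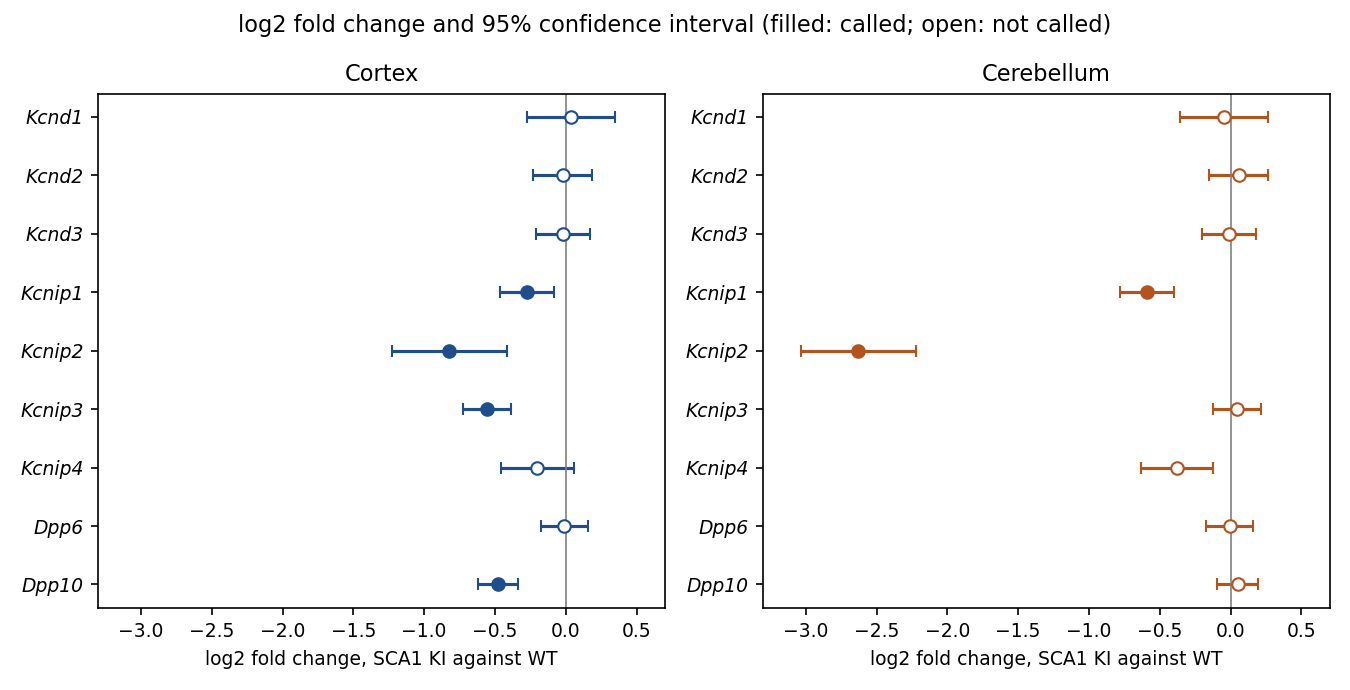
LFC of SCA1 KI against WT (x axis, log2 scale) with its 95% confidence interval for the 9 genes in cortex and cerebellum, from limma on 3 libraries per group, with filled points for called genes and open points for the others. Kcnip2 lay at −0.82 in the cortex and −2.63 in the cerebellum, and the intervals of the 3 Kv4 genes and Dpp6 spanned 0 in both regions.

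Some marker lists also moved with the calls in the cortex. Those of cortical excitatory neurons (8 genes) summed to 105350 to 110760 normalized counts in WT and 58598 to 79954 in SCA1 KI libraries, with 3 of 8 lower. Astrocyte markers (7 genes) summed to 253744 to 261874 and 123124 to 185070, with 5 of 7 lower, and forebrain interneuron markers to 14107 to 15296 and 8991 to 10572, with 2 of 8 lower by limma, 5 of 8 by edgeR and 4 of 8 by DESeq2. Midbrain markers summed to 235 to 318 in WT and 838 to 1595 in SCA1 KI cortex, with 3 of 8 higher, or 5 of 8 by DESeq2, and Shox2 and Sox14 were at 0.00 in WT. No cortical excitatory marker was at 0. Of all tested genes, 10.8% were lower and 4.82% higher in the cortex by limma. Of these 15369 genes, edgeR called 1630 lower there, and DESeq2 called 1842 lower and 816 higher. The part of these markers in the lower Kcnip1, Kcnip2, Kcnip3 and Dpp10 was not tested.

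The effect of the genotype differed between the regions for 3 of the 9 genes by the region by genotype interaction (adjusted p under 0.05), beside 8.15% of all tested genes. Kcnip2 fell more in the cerebellum, by a difference of 1.80 between the cortical and the cerebellar LFC (standard error 0.27, adjusted p = 0.00145 from limma). Kcnip3 (difference −0.60, standard error 0.11, adjusted p = 0.00524) and Dpp10 (difference −0.53, standard error 0.093, adjusted p = 0.00435) fell in the cortex and were not called in the cerebellum. For Dpp10 the difference was −0.35 and did not pass (adjusted p = 0.177 from limma) after correction for GC content and length of the transcripts. The difference was 0.31 for Kcnip1 (95% confidence interval 0.04 to 0.58, adjusted p = 0.164 from limma) and 0.18 for Kcnip4 (−0.19 to 0.54). For Kcnd1, Kcnd2, Kcnd3 and Dpp6 the intervals of the difference spanned 0.

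Between the WT regions, 8 of the 9 genes were called, beside 61.7% of all tested genes. Cortex was higher for 3, beside 31.0%: Kcnip2 (17.7-fold, LFC 4.14, standard error 0.19), Kcnd1 (LFC 0.63) and Kcnip3 (LFC 0.38). Cerebellum was higher for 5, beside 30.7%: Kcnd2 (2.55-fold, LFC −1.35), Kcnip1 (−1.01), Kcnip4 (−0.89), Kcnd3 (−0.80) and Dpp6 (−0.40). Dpp10 was not called (LFC 0.05, 95% confidence interval −0.09 to 0.20). Between the SCA1 KI regions 8 were called as well, beside 62.4%. Kcnip2 was then 61.8-fold higher in the cortex (LFC 5.95) and Kcnd1 was also higher (LFC 0.72), beside 32.0%. Cerebellum was higher for 6, beside 30.5%, with Dpp10 now among them (LFC −0.47, adjusted p = 3.05e-05 from limma). That LFC was −0.11 and did not pass (adjusted p = 0.371) after the same correction. Kcnip3 had turned to −0.22 (adjusted p = 0.0224), under the limit of 0.25.

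Levels of different genes were compared only as normalized counts per kb of exon, with the union of all exons of a gene as its length. In WT cortex Kcnip2 came first at 1666 ± 208 per kb, then Kcnip3 at 1377 ± 5.21. Kcnd2 (881 ± 28.5), Dpp6 (842 ± 70.4), Kcnip4 (801 ± 90.9) and Dpp10 (711 ± 55.3) followed, each overlapping its next neighbour in single libraries, and then Kcnd3 (399 ± 23.5), Kcnip1 (181 ± 13.3) and Kcnd1 (44.6 ± 4.29), set apart from each other. In SCA1 KI cortex Kcnip3 (941 ± 123), Kcnip2 (938 ± 73.8), Kcnd2 (870 ± 73.1), Dpp6 (836 ± 79.1) and Kcnip4 (703 ± 139) each overlapped the next. The order depended on the length: with the longest transcript Dpp6 came first in WT cortex (2203 ± 184 per kb, before Kcnip2 at 1860 ± 233), and with the coding length Kcnip2 (7149 ± 894) did.

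The cerebellum had another order. In WT cerebellum Kcnd2 led at 2266 ± 351 per kb, followed by Kcnip4 (1478 ± 96.8), Dpp6 (1113 ± 51.7) and Kcnip3 (1057 ± 31.2), of which the last 2 overlapped. Kcnd3 (694 ± 13.2) and Dpp10 (684 ± 31.5) overlapped as well, and Kcnip1 (364 ± 11.2), Kcnip2 (95.6 ± 23.8) and Kcnd1 (28.8 ± 4.17) closed the order. In SCA1 KI cerebellum Kcnip4 (1136 ± 43.3), Dpp6 (1107 ± 4.82) and Kcnip3 (1092 ± 37.4) each overlapped the next. Kcnip2, at 15.1 ± 3.26 per kb, came last there, below Kcnd1 at 27.8 ± 3.27. With the longest transcript Dpp6 led in WT cerebellum (2912 ± 135 per kb) and with the coding length Kcnip4 (7148 ± 468). By its mean, Kcnip2 was last in SCA1 KI cerebellum with each of the 3 lengths. With the coding length it lay close to Kcnd1, at 64.9 ± 14.0 against 75.1 ± 8.85 per kb.

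The makeup of each family followed from these levels. Kcnd2 held 66.5% ± 0.62 (SD, n = 3) of the Kv4 sum per kb in WT and 66.4% ± 1.06 in SCA1 KI cortex, and 75.6% ± 2.83 and 76.5% ± 0.81 in the cerebellum. Kcnip2 held 41.3% ± 4.0 of the KChIP sum in WT and 34.3% ± 0.90 in SCA1 KI cortex, but 3.21% ± 0.88 and 0.61% ± 0.14 in the cerebellum. Kcnip4 held the most in the WT cerebellum (49.3% ± 1.45), and Kcnip3 went from 35.3% ± 0.32 to 43.9% ± 0.25 between WT and SCA1 KI cerebellum. The share of Dpp10 in the DPP sum depends on the length used: in WT cortex it was 45.8% with the union of exons, 25.1% with the longest transcript and 53.7% with the coding length.

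The KChIP sum per Kv4 sum was 3.04 ± 0.032 in WT and 2.10 ± 0.28 in SCA1 KI cortex (SD, n = 3), and no SCA1 KI library (1.81 to 2.38) reached the WT libraries (3.02 to 3.08). Without Kcnip2 it was 1.78 ± 0.14 and 1.38 ± 0.18, also without overlap. In the cerebellum the ratio was 1.01 ± 0.088 in WT and 0.81 ± 0.030 in SCA1 KI, from 0.94 to 1.11 and from 0.79 to 0.85. The DPP sum per Kv4 sum was 1.17 ± 0.030 and 1.03 ± 0.060 in the cortex, with no overlap, and 0.60 ± 0.048 and 0.59 ± 0.012 in the cerebellum, where the groups overlapped. The ratio of Kcnd2 to Kcnd3 was 2.21 ± 0.062 and 2.21 ± 0.14 in the cortex. The ratios also moved with the length: in WT cortex that of KChIP to Kv4 was 3.52 ± 0.078 with the longest transcript and 4.12 ± 0.088 with the coding length, and that of DPP to Kv4 2.01 ± 0.041 and 1.95 ± 0.077. With each of the 3 lengths the KChIP to Kv4 ratio was lower in all SCA1 KI than in all WT libraries of either region, and the DPP to Kv4 ratio in the cortex. These ratios are descriptions of RNA per length, not of subunits per channel, and were not tested.

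**Figure D4:**
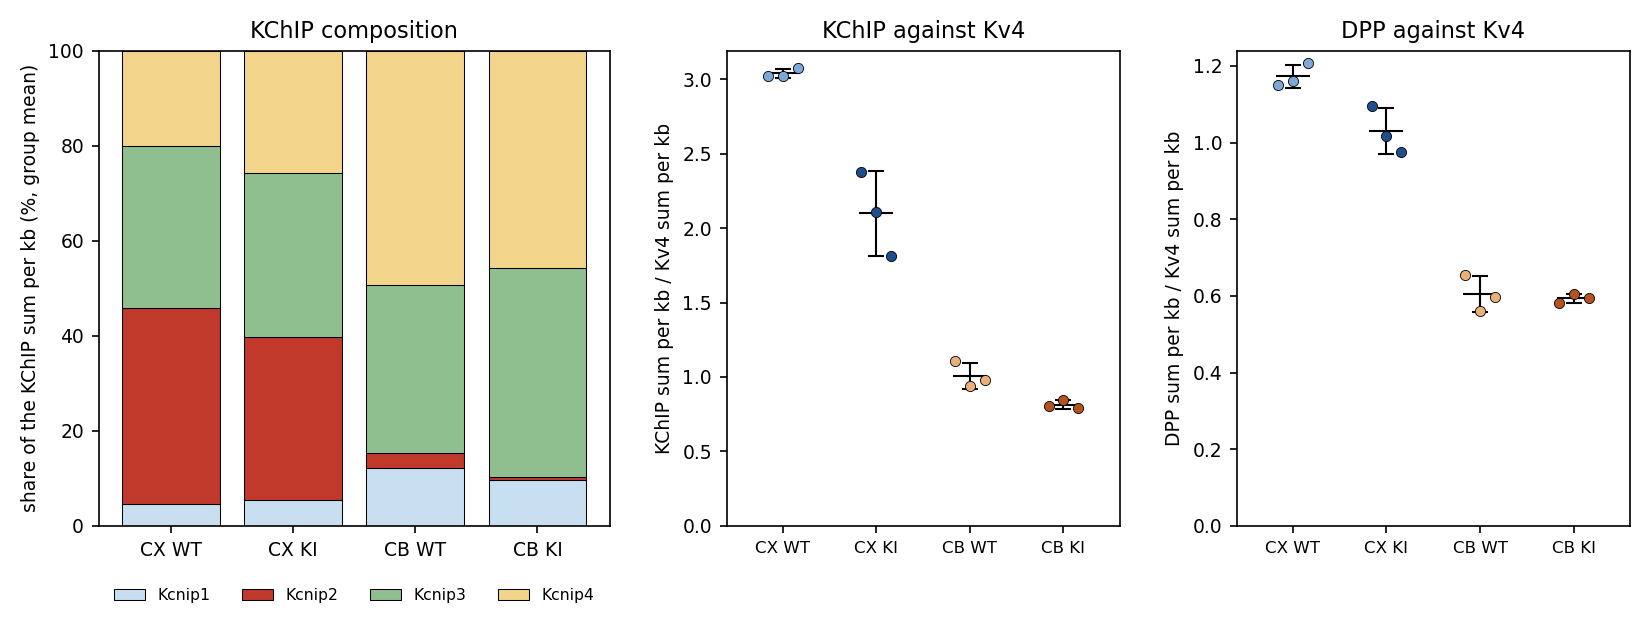
Left, mean share (%) of each KChIP gene in the KChIP sum of normalized counts per kb in cortex (CX) and cerebellum (CB) of WT and SCA1 KI (KI) mice; middle and right, KChIP and DPP sums per Kv4 sum in single libraries (points) with mean ± SD of 3 libraries (bars). Kcnip2 took 41.3% in WT cortex and 0.61% in SCA1 KI cerebellum, and the KChIP to Kv4 ratio was lower in all SCA1 KI than in all WT libraries of the same region.

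Other genes of the pathway were read from lists set by function. Of 14 kinases, anchors and trafficking partners of Kv4, 7 were lower and 1 higher in the SCA1 KI cortex, and 1 was lower in the cerebellum. Beside these and the following lists stand, over all tested genes, 10.8% lower and 4.82% higher in the cortex and 4.44% lower and 0.917% higher in the cerebellum. Camk2a, a calcium-dependent kinase that phosphorylates Kv4.2, went from 177938 ± 10457 in WT to 81999 ± 6397 in SCA1 KI cortex (LFC −1.12) and from 6089 ± 840 to 3028 ± 185 in the cerebellum (adjusted p = 6.14e-05 by limma). In the cortex the postsynaptic scaffold Dlg4 (PSD-95) had an LFC of −0.52, which was called. Its cerebellar LFC of −0.15 was not called. The median LFC of the list was −0.26 in the cortex and −0.04 in the cerebellum.

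Of 9 tested neuronal calcium sensors related to KChIP (10 listed), 6 were lower in the cortex by limma, edgeR and DESeq2. In the cerebellum limma and edgeR called 1 higher and 0 lower, whereas DESeq2 called 1 higher and 4 lower, and 6 of the 9 had an unadjusted p under 0.05 by limma. Of all 15369 tested genes, 2664 had such a p in the cerebellum, and DESeq2 called 231 higher and 919 lower there. The median LFCs were −0.34 and −0.29. The calmodulin gene Calm3 (LFC −0.29) and the visinin-like sensor Vsnl1 (LFC −0.45) were among those called in the cortex. Of 9 tested genes of other A-type channels and auxiliary subunits (12 listed), 4 were lower in each region, with medians of −0.11 and −0.42. The Kv beta subunit Kcnab3 was lower in the cortex (LFC −1.20) and the cerebellum (LFC −0.55), and Kcna4, the A-type subunit Kv1.4, in the cerebellum (LFC −0.83), all called.

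Of 5 genes described as bound by KChIP3, 1 was lower in each region by limma. With edgeR and DESeq2 2 were lower in the cortex, and DESeq2 called 2 higher and 1 lower in the cerebellum. Fosl2, a subunit of AP-1, had an LFC of −1.35 in the cortex. Pdyn, which encodes prodynorphin, stood at 1065 ± 51.3 in WT and 409 ± 22.9 in SCA1 KI cortex. This LFC of −1.38 was not called (adjusted p = 0.126 by limma). In the cerebellum it was at 53.6 ± 35.2 and 3.29 ± 2.85, an LFC of −3.86 that was called. The standard error of Pdyn was 0.58 in both regions, since the fit shares 1 spread that takes in the low cerebellar counts. Of 6 peptidases related to the DPP-like subunits, Dpp8 (LFC −0.47) and Dpp9 (LFC −0.25) were lower and Dpp7 (LFC 0.39) higher in the cortex by limma. Dpp9 lay at the limit of 0.25, and edgeR and DESeq2 each called 1 of the 6 lower there. Of the 6, 0 were called in the cerebellum by limma, edgeR or DESeq2, with 0 at an unadjusted p under 0.05. The medians of the 2 lists were −0.54 and −0.20 in the cortex and 0.39 and 0.01 in the cerebellum.

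For each gene called in at least 1 region, the genes of most like pattern were found by Pearson's r of log2(normalized count + 1) over the 12 libraries after the mean of each region was removed. These are descriptions over 12 libraries that share the split by genotype and the size factors. Nearest to Kcnip2 were Ddn (r = 0.99), which encodes the dendritic protein dendrin, Crhbp (0.98) and Enc1 (0.98). Nearest to Kcnip1 were Myo15 (0.96), Fbxl21 (0.94) and Gm10421 (0.94). Nearest to Kcnip3 were Kif5c (0.98), a kinesin heavy chain of neurons, Fam78a (0.98) and Prkcb (0.98), a protein kinase C. Nearest to Dpp10 were Abcd2 (0.98), Cinp (0.98) and Neu1 (0.96).

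Ataxin-1 binds the repressor capicua, whose octamer (TGAATGAA, TGAATGGA, TCAATGAA or TCAATGGA) was therefore searched on both strands of RefSeq promoters (GRCm38.p6), from 250 bases before to 50 after each start. Of the 9 genes, 8 matched the table, with 15 promoters, and Kcnd1 did not. An octamer stood in 1 promoter of Kcnip1 and 1 of Kcnip4, and in 3.84% of all 32851 promoters. These are shown with the octamer in capitals, read on the strand of the gene, Kcnip1 at chr11:33843670-33843693 (minus strand) and Kcnip4 at chr5:49285723-49285746 (minus strand).
Kcnip1: tggcgctgTTCATTCAtgattggt
Kcnip4: catgctgaTTCATTGAtgagctgg
The promoter window of Kcnip2, the gene with the largest fall of the 9, held no octamer. It held 2 GC boxes (GGGCGG, in capitals), both before the start. This motif was found in 35.7% of all promoter windows of the same length, on either strand. The upstream 250 bases are shown, at chr19:45816064-45816313 (minus strand).
Kcnip2: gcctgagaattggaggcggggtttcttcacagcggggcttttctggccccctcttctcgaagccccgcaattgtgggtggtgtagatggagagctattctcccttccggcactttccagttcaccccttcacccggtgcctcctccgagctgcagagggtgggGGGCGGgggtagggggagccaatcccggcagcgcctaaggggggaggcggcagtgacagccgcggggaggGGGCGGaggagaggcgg
A match describes letters in a window and is neither a site nor a cause, and gene counts do not tell which start was used.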

How the data were processed

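Libraries were made from poly-adenylated RNA and sequenced as paired ends of 75 bp. For alignment the authors used STAR and the mm10 build, for counting featureCounts, and for normalization DESeq2. Versions, strand setting and annotation are not given in the sources used here. The deposited table holds a signal per gene and library, the read count divided by a size factor. In every library 100% of these values were whole reads (within 0.01 of a read), which were recovered for edgeR and DESeq2.

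The 15369 genes whose mean reached 10 normalized counts (390 were removed) were fitted on log2(normalized count + 1), which understates the change of low genes, with limma 3.58.1 (eBayes with a trend) in R 4.3.3, using 12 libraries and 4 group means. No 2 libraries of a group were alike within sampling noise (chi-square of 7.54 to 36.6 a gene). Coordinates, lengths and overlaps are from GENCODE vM21 (GRCm38). Reads of overlapping genes were not separated.

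The members and lists were chosen with earlier results of these data known. Named genes were the 9 members, up to 3 called genes of smallest p per pathway list, the 3 genes most like each called member, and marker genes where a result turned on them. Some of these genes and 1 sequence are not reported here. Marker lists not described beside a result are given among the other observations. Alternatives were each library left out, each region alone, an LFC limit of 0 or 1, a pseudocount of 0.5 or 5, a minimum mean of 100 or none, centring by region, the quasi-likelihood test of edgeR 4.0.16, the test of DESeq2 1.42.0, and a loess correction for GC content and length of the transcripts (span 0.5). Other gene lengths for the levels and family ratios, and the interneuron sum without Pvalb, were added after seeing the data.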

Additional observations from a re-analysis of the deposited data

Results flagged for a closer look

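By the interaction test, 3 of the 9 genes had a cortical LFC that differed from the cerebellar one, with differences of 1.80 for Kcnip2, −0.60 for Kcnip3 and −0.53 for Dpp10. Kcnip2 was lower in all SCA1 KI libraries of both regions. For Kcnip3 and Dpp10 all SCA1 KI libraries of the cortex, but not those of the cerebellum, lay below the WT libraries.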

How the results depend on the processing

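No paired analysis was possible because the library columns carry no replicate number of the labels. With a limit of 1 on the absolute LFC, in place of 0.25, the called members numbered 0 in the cortex (from 4), 1 in the cerebellum (from 2), 3 between the WT regions (from 8) and 2 between the SCA1 KI regions (from 8). Under the other settings there were 3 or 4 in the cortex, where Kcnip1 was the gene lost (Kcnip4 was gained without SCA1 KI library A), and 2 or 3 in the cerebellum, where Kcnip4 was the gene gained. Signs turned only for genes that were not called. With edgeR the LFC in the cortex was 0.0054 for Kcnd3 and 0.0067 for Dpp6, and the difference between the regions 0.0163 and 0.0161. With the trend on length and GC content removed, the values were 0.0756 and 0.0611 for the cortex and 0.107 and 0.0612 for the difference, and the cerebellar LFC of Dpp10 was −0.0177. With centring by region, the cerebellar LFC was 0.0139 for Kcnd3 and 0.0169 for Dpp6. With single libraries left out, the cortical LFC ran from −0.0376 to 0.132 for Kcnd1, −0.0751 to 0.0456 for Kcnd2, −0.102 to 0.100 for Kcnd3 and −0.0648 to 0.0698 for Dpp6. The cerebellar LFC then ran from −0.160 to 0.0497, −0.0683 to 0.157, −0.0349 to 0.0124 and −0.0465 to 0.0141 for these genes, and the difference from −0.0096 to 0.200, −0.179 to 0.0470, −0.0912 to 0.111 and −0.0574 to 0.0772. For Kcnip1 in the cortex, the adjusted p from limma without 1 library ran from 0.0195 (without SCA1 KI F) to 0.166 (without SCA1 KI E). Kcnip3 between the SCA1 KI regions was called without cortex library E (LFC −0.32) and without cerebellum library 5 (−0.25), and with the length and GC trend removed (−0.30). The cause of these shifts was not tested. The other calls held in every fit with the limit of 0.25, except those of Dpp10 with length and GC removed, given above. With 3 libraries a group, the intervals of the Kv4 genes still allow LFCs from −0.36 to 0.35.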

Other observations

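In the cerebellum, Purkinje cell markers (8 genes) summed to 337195 to 420283 normalized counts in WT and 297543 to 335100 in SCA1 KI libraries, with 1 of 8 lower by limma, 2 by edgeR and 3 by DESeq2. Astrocyte, microglia and hippocampal markers had 1 of 7 each lower there by limma. Of all tested genes, 4.44% were lower in the cerebellum by limma. Of these 15369 genes, edgeR called 721 lower there and DESeq2 919, and 2664 had an unadjusted p under 0.05 by limma. In the cortex, 4 of the 8 Purkinje cell markers were lower and 1 higher, and 5 of 8 cerebellar interneuron markers were lower. Also lower in the cortex were 2 of 7 striatal, 1 of 7 hippocampal, 1 of 8 thalamic and 2 of 5 oligodendrocyte precursor markers and the 1 blood marker in the table. Beside these stand 10.8% lower and 4.82% higher in the cortex over all tested genes by limma. An unadjusted p under 0.05 by limma was found there for 4689 of the 15369. Of 8 granule cell markers 0 were called by limma or edgeR in either region, although 2 in the cortex and 1 in the cerebellum had an unadjusted p under 0.05 by limma, and DESeq2 called 1 higher and 1 lower in the cortex. Of 6 endothelial markers 0 were called by limma or edgeR, with 2 and 1 under an unadjusted p of 0.05, and DESeq2 called 1 lower in the cortex. In the cortex 0 of 8 oligodendrocyte and 0 of 7 microglia markers were called by limma, edgeR or DESeq2. None of these had an unadjusted p under 0.05 by limma. In the cerebellum the 3 tests called 0 of 8 cerebellar interneuron and 0 of 5 oligodendrocyte precursor markers, with 0 and 2 under an unadjusted p of 0.05 by limma. Of 7 striatal markers and the 1 blood marker there, limma and edgeR called 0, and DESeq2 called 1 striatal marker lower. By limma 2 striatal markers and the blood marker had an unadjusted p under 0.05. Of 6 choroid plexus markers 0 were called by limma, edgeR or DESeq2, and 0 had an unadjusted p under 0.05 by limma. Their sums ran from 19497 to 72614 in WT and from 825 to 75606 in SCA1 KI cerebellum. With such a spread the test cannot decide whether their levels differed there.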
